A study of Mus musculus with 8 samples.

Results

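The majority B cell population of the mouse lung grafts, subcluster 0 of the deposited clustering of B cells and plasma cells (PCs), held 1893 cells of the 20778 cells in the data set. Its members were the cells that the table of cells places in B cell subcluster 0 and labels as B cells. They made up most of the 2286 cells labelled B cells. A further 2 cells of subcluster 0 carried a PC label and were not used. The other B cells were 206 in subcluster 1, 156 in subcluster 3, 8 in the PC-rich subcluster 2 and 23 without a subcluster.

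A resting B cell carries on its surface a B cell receptor, an antibody anchored in the membrane and paired with the signaling chains Cd79a and Cd79b. Naive B cells make IgM and IgD from the same rearranged heavy chain gene, circulate through lymphoid tissue under the control of Ccr7 and Cxcr5, and present antigen to T cells on MHC class II. After activation, class switching joins the variable region to another constant gene, so that the cell makes IgG, IgA or IgE in place of IgM and IgD. In a chronically stimulated lung, B cells can gather in follicle-like aggregates with T cells, and some give rise to antibody-secreting PCs.

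The grafts came from orthotopic left lung transplantation (LTx) in male mice that received no immunosuppression, harvested 1 month later. In the B6→B6 group (5 mice) donor and recipient were both C57BL/6 (B6), and in the HLA→B6 group (3 mice) the donor was Tg(HLA-A2.1)1Enge/J, a line with a human HLA-A2 transgene on C57BL/6, whose grafts develop bronchiolitis obliterans syndrome (BOS) in a B6 recipient. Each mouse gave 1 library, for which 10000 cells were loaded for droplet sequencing of transcript 3′ ends, and counts are unique molecular identifiers (UMIs), that is, molecules. A graft can hold B cells of the donor and of the recipient, and the labels do not separate them.

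The 5 B6→B6 mice gave 53, 215, 335, 214 and 314 subcluster 0 cells, 1131 in all, and the 3 HLA→B6 mice gave 316, 244 and 202, 762 in all. The summed UMIs of these cells ran from 79030 in B6→B6 replicate 1 to 596943 in B6→B6 replicate 5. The median depth of a cell was between 1403 and 2011.5 UMIs in the 8 mice, and 1574 ± 157 (SD, n = 5) in B6→B6 against 1638 ± 327 (n = 3) in HLA→B6. The first 3 B6→B6 replicates and the second HLA→B6 replicate are called the linked libraries, since each had, with at least 1 other of them, at least 3 times as many cell barcodes in common as chance gives, but only 1 barcode was shared with both cells in subcluster 0. RNA of some other cell types was high in B6→B6 replicate 4, where the 8 genes of an epithelial list summed to 983 CPM (counts scaled to 1000000 UMIs per mouse) in subcluster 0 cells against 13.6 to 25.3 in the other B6→B6 mice and 10.5 to 352 in HLA→B6. In the same mouse 12 T cell genes summed to 221 CPM, against 12.7 to 21.7 in the other B6→B6 mice and 4.26 to 44.8 in HLA→B6.

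The labelled identity was checked against the markers of B cells. Ms4a1, the gene of the surface protein CD20 (chr19:11249675-11266241, minus strand, GRCm38), had a UMI in 78.3% of subcluster 0 cells and in 0.197% of T cells. Cd79a (chr7:24897381-24902197, plus strand) had one in 98.4% of subcluster 0 cells and 0.394% of T cells. Ighd, the constant gene of IgD (chr12:113406604-113416324, minus strand), was detected in 69.7% of subcluster 0 cells and 0.710% of T cells. The median depth was 1586 UMIs in subcluster 0 cells and 1648 in T cells, so the shares in T cells serve as a background level, of untested source, at a like depth. All 3 markers were thus far above that level.

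Within the B cells, the genes of naive and follicular B cells set subcluster 0 apart from subcluster 1. These values describe clusters drawn from the same counts and carry no test. At a common depth of 1000 UMIs per cell, Ighd was expected in 55.7% of subcluster 0 cells and 15.5% of subcluster 1 cells. Fcer2a, the low-affinity IgE receptor CD23, was expected in 23.8% and 3.26%. Cr2, the complement receptor CD21, was expected in 10.9% and 2.49%, and Ccr7, the receptor for lymphoid tissue chemokines, in 32.6% and 13.7%. All of these naive and follicular genes were thus found in a larger share of subcluster 0 cells. The pan-B-cell gene Ms4a1 was close, with 64.8% and 61.6%. Other genes of B cell identity were also found in a larger share of subcluster 0 cells. Ebf1 was expected in 75.4% and 46.6%, and Fcmr in 55.7% and 38.6%. Of the identity list only Blk went the other way, with 13.6% and 17.6%. A larger share in subcluster 0 was thus not limited to naive and follicular genes.

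Some genes of B-1 and memory B cells were rarer in subcluster 0 than in subcluster 1. The transcription factor gene Bhlhe41, a regulator of B-1 cells, was expected at 1000 UMIs in 0.853% of subcluster 0 cells and 17.2% of subcluster 1 cells. Zbtb20, a factor of B-1 and plasma cells, was expected in 7.73% and 32.2%. Cd80, a costimulatory ligand found on memory cells, was expected in 0.119% and 3.23%. Cd38, the highest gene of the memory and atypical list, was less different, with 13.5% and 17.4%. Mki67, a marker of dividing cells, was expected in 0.0272% of subcluster 0 cells. Among genes of PCs, Jchain and Sdc1 were expected in 0.509% and 0.431% of subcluster 0 cells, but Mzb1, a chaperone of antibody assembly that B cells also express, in 31.3%, the receptor gene Tnfrsf13b in 14.6% and Xbp1 in 6.06%. Subcluster 3 could not be set beside these at the same depth: its median was 533 UMIs per cell and 0 of its 156 cells reached 1000. Without thinning, 85.3% of its cells had a UMI of Cd79a and 45.5% one of Ighd, against 32.0% for Ighd in the more deeply sequenced subcluster 1.

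The number of subcluster 0 cells recovered did not separate the groups. It was 226.2 ± 112 per mouse (SD, n = 5) in B6→B6 and 254 ± 57.7 (n = 3) in HLA→B6 (two-sided exact permutation test, p = 0.786). As a share of all cells of the graft, subcluster 0 made up 5.60%, 15.9%, 13.8%, 5.22% and 36.2% in the B6→B6 mice, in the order of their replicate numbers, and 4.83%, 7.41% and 16.2% in the HLA→B6 mice. The groups overlapped, and the means of 15.3% ± 12.6 and 9.48% ± 5.97 did not differ beyond the spread between mice (exact p = 0.643, adjusted p = 0.643 over 2 shares). The difference of -5.85 points became -0.642 without B6→B6 replicate 5 and -9.22 without HLA→B6 replicate 3. The grafts gave from 868 cells, in B6→B6 replicate 5, to 6544 cells, in HLA→B6 replicate 1. This share thus moves with the number of other cells recovered as much as with that of subcluster 0.

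Among cells with a B cell subcluster, subcluster 0 was the smaller share in HLA→B6. It held 81.5%, 88.1%, 89.8%, 92.2% and 87.7% of these cells in the B6→B6 mice and 60.7%, 70.1% and 68.9% in the HLA→B6 mice. Every HLA→B6 mouse was below every B6→B6 mouse. The means were 87.9% ± 3.97 (n = 5) and 66.6% ± 5.16 (n = 3), a difference of -21.3 percentage points with an exact p of 0.0357, the smallest that 3 against 5 mice allow, and an adjusted p of 0.0714. Within the linked and the unlinked libraries the mean difference was -20.8 points (exact p = 0.0833, again the smallest possible). As the 4 subclusters sum to the whole, this share moves with the numbers of the other B-lineage cells as much as with those of subcluster 0.

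**Figure D1:**
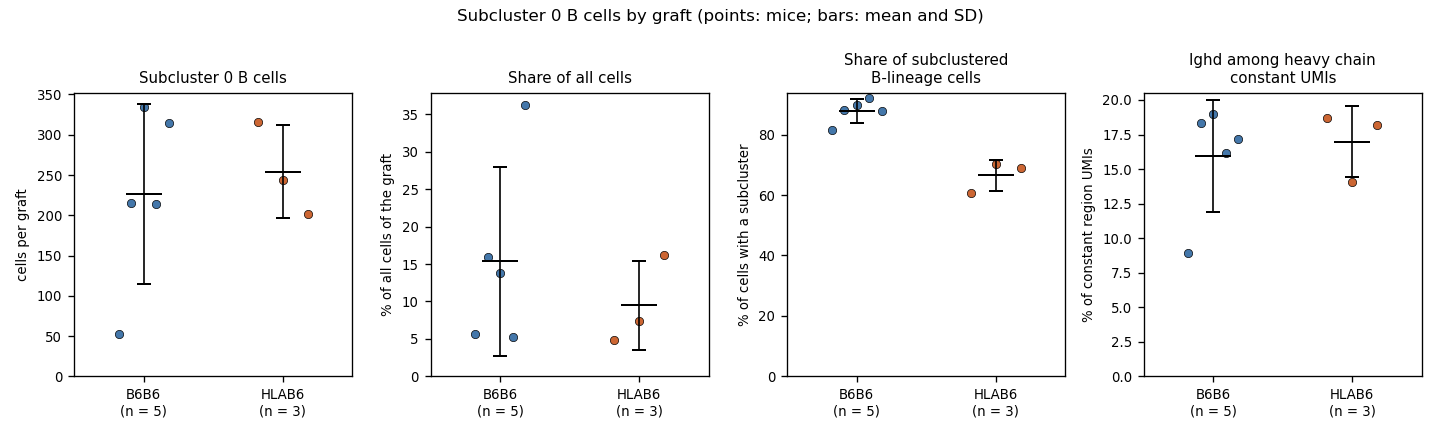
Subcluster 0 B cells per graft, as cells, as percent of all cells, as percent of cells with a B cell subcluster, and the percent of heavy chain constant UMIs that fall on Ighd; each point is 1 mouse, and bars give the mean and SD of 5 B6→B6 and 3 HLA→B6 mice. Only the third panel separates the groups, with 60.7% to 70.1% in HLA→B6 below 81.5% to 92.2% in B6→B6.

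The transcriptome of subcluster 0 was then compared between HLA→B6 and B6→B6 grafts on counts summed per mouse. With edgeR's quasi-likelihood F test, 4869 genes had enough counts to be tested, and at an adjusted p of 0.05 none was called higher (0%) and none lower (0%) in HLA→B6. At an unadjusted p under 0.05 there were 78 genes higher (1.6% of those tested) and 78 lower (1.6%), 156 in all (3.2%). DESeq2 called 1 gene, Dusp2, lower and 0 higher, and had 70 genes at an unadjusted p under 0.05. The median log2 fold change over all tested genes was 0.00, and 50.5% of them had a fold change above 0. All genes named from here on in this comparison therefore stand below the threshold in the edgeR fit, and their values are given as such.

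Apoe, which encodes apolipoprotein E, a carrier of lipids made by macrophages (chr7:19696109-19699188, minus strand), had the smallest p of the genes with a higher level in HLA→B6. In the B6→B6 mice its level was 0, 334, 187, 466 and 106 CPM, and in the HLA→B6 mice it was 876, 2315 and 891 CPM. The lowest HLA→B6 mouse stood above the highest B6→B6 mouse (log2 fold change 2.52 ± 0.46, SE, edgeR adjusted p = 0.0917). It passed the threshold without B6→B6 replicate 4 (log2 fold change 2.97, adjusted p = 0.0262) and without HLA→B6 replicate 3 (2.71, adjusted p = 0.0167), while leaving out HLA→B6 replicate 2 gave 1.93 (adjusted p = 0.871).

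The cells with an Apoe UMI were 0%, 6.98%, 10.7%, 29.0% and 4.14% of the subcluster 0 cells in B6→B6 and 23.7%, 41.8% and 45.5% in HLA→B6, and the highest number in a single cell was 51 UMIs, in HLA→B6 replicate 2. In T cells of the same grafts Apoe was low, with 0 to 21.3 CPM in B6→B6 and 2.11 to 50.9 CPM in HLA→B6. In NK cells it was at 0 in 7 mice and at 269 CPM in HLA→B6 replicate 3. In subcluster 1 B cells it was at 0 to 2070 CPM in B6→B6 and 2259 to 5204 CPM in HLA→B6, without overlap. These mice gave 5 to 21 and 5 to 71 subcluster 1 cells. Alveolar macrophages had 25.1 to 6457 CPM in B6→B6 and 17956 to 23395 CPM in HLA→B6, again without overlap, and monocytes 3114 to 4640 and 3487 to 6849 CPM. Of the 75, 102 and 92 HLA→B6 cells of subcluster 0 with an Apoe UMI, 7, 4 and 21 also had a UMI of Lyz2, Csf1r, Ear2, Marco, Mrc1 or Ctsd, which macrophages express. The 11 genes of an alveolar macrophage list together stood at 34.2 to 159 CPM in B6→B6 and 21.1 to 59.9 CPM in HLA→B6 in subcluster 0, and Lyz2 was at 0 in 7 of the 8 mice. With cells holding a defining gene of another type left out, the fold change of Apoe was 2.52 (adjusted p = 0.0866). Apoe was among the genes with which the authors estimated free RNA, and the part of that step in the difference was not tested.

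**Figure D2:**
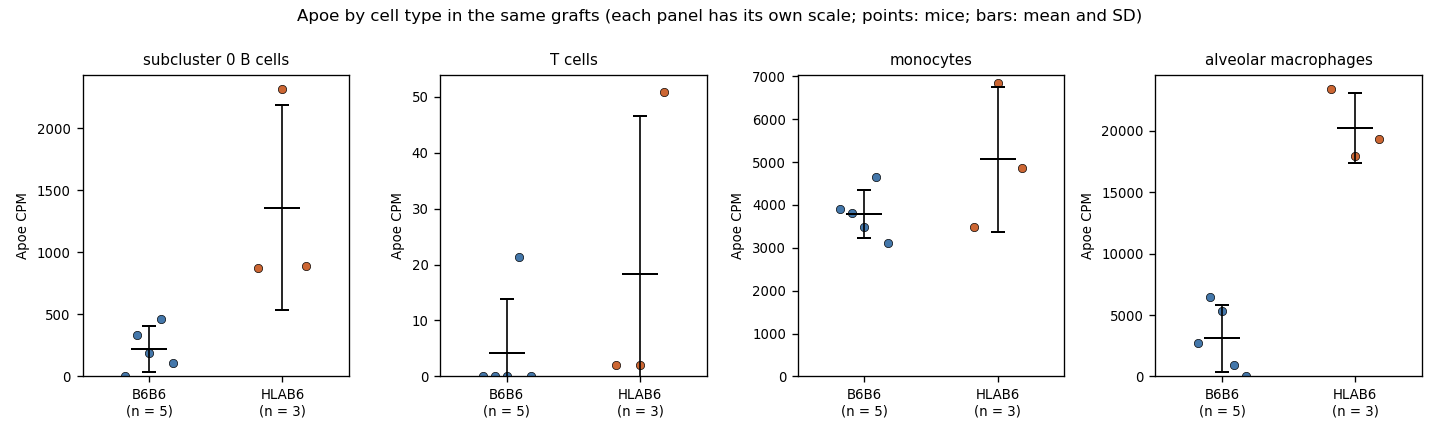
Apoe in CPM in 4 cell types of the same grafts, each panel on its own linear scale; points are mice, and bars give the mean and SD of 5 B6→B6 and 3 HLA→B6 mice. HLA→B6 mice lie above B6→B6 mice in subcluster 0 B cells (876 to 2315 against 0 to 466 CPM) and in alveolar macrophages, while T cells stay at or below 50.9 CPM. Subcluster 1 B cells, not drawn, had 2259 to 5204 against 0 to 2070 CPM.

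After Apoe, the 4 genes with the smallest p among those higher in HLA→B6 were Zbtb20, Mrpl57, Igtp and Syngr2. Zbtb20, the factor of B-1 and plasma cells named above (chr16:42875881-43642602, plus strand), had 63.3, 92.4, 68.3, 74.6 and 60.3 CPM in B6→B6 and 107, 142 and 136 CPM in HLA→B6. The groups did not overlap (log2 fold change 0.83 ± 0.20, adjusted p = 0.583). Its pooled level was 93.5 CPM in subcluster 0 and 383 CPM in subcluster 1. Igtp, an interferon-induced GTPase of cell-autonomous immunity (chr11:58199556-58207591, plus strand), had 12.7, 27.2, 19.8, 9.33 and 3.35 CPM in B6→B6 and 42.6, 50.1 and 31.1 CPM in HLA→B6, without overlap (1.52 ± 0.44, adjusted p = 1.00). Igtp was so low in B6→B6 that it could pass the filter on low counts through the HLA→B6 mice alone. Mrpl57, of the mitochondrial ribosome, averaged 65.1 ± 8.08 and 111 ± 29.2 CPM without overlap, and Syngr2, of vesicle membranes, 129 ± 44.5 and 249 ± 128 CPM with overlap.

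Dusp2, a phosphatase that acts on MAP kinases and is induced on lymphocyte activation (chr2:127336159-127338376, plus strand), led the genes with a lower level in HLA→B6. It had 493, 443, 394, 466 and 293 CPM in B6→B6 and 224, 203 and 184 CPM in HLA→B6. Every HLA→B6 mouse was below every B6→B6 mouse (log2 fold change -0.99 ± 0.18, edgeR adjusted p = 0.0917, DESeq2 adjusted p = 0.0107). Without B6→B6 replicate 5 edgeR also called it (-1.09, adjusted p = 0.0238). Rgs2, a brake on G protein signaling (chr1:143999338-144004161, minus strand), had 127, 171, 79.1, 146 and 80.4 CPM in B6→B6 and 32.0, 65.9 and 31.1 CPM in HLA→B6, also without overlap (-1.44 ± 0.31, adjusted p = 0.335). The remaining 3 were Pim1, a survival kinase (192 ± 56.2 against 106 ± 16.6 CPM), Hnrnpab, an RNA-binding protein (101 ± 8.25 against 63.0 ± 5.36 CPM), and Sh3bp5, a regulator of the BCR kinase Btk (236 ± 31.6 against 160 ± 15.8 CPM). None of these 3 overlapped between the groups. Over all tested genes, 75 were higher (1.54%) and 80 lower (1.64%) in HLA→B6 without overlap, in CPM with the normalization factors of the fit.

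**Figure D3:**
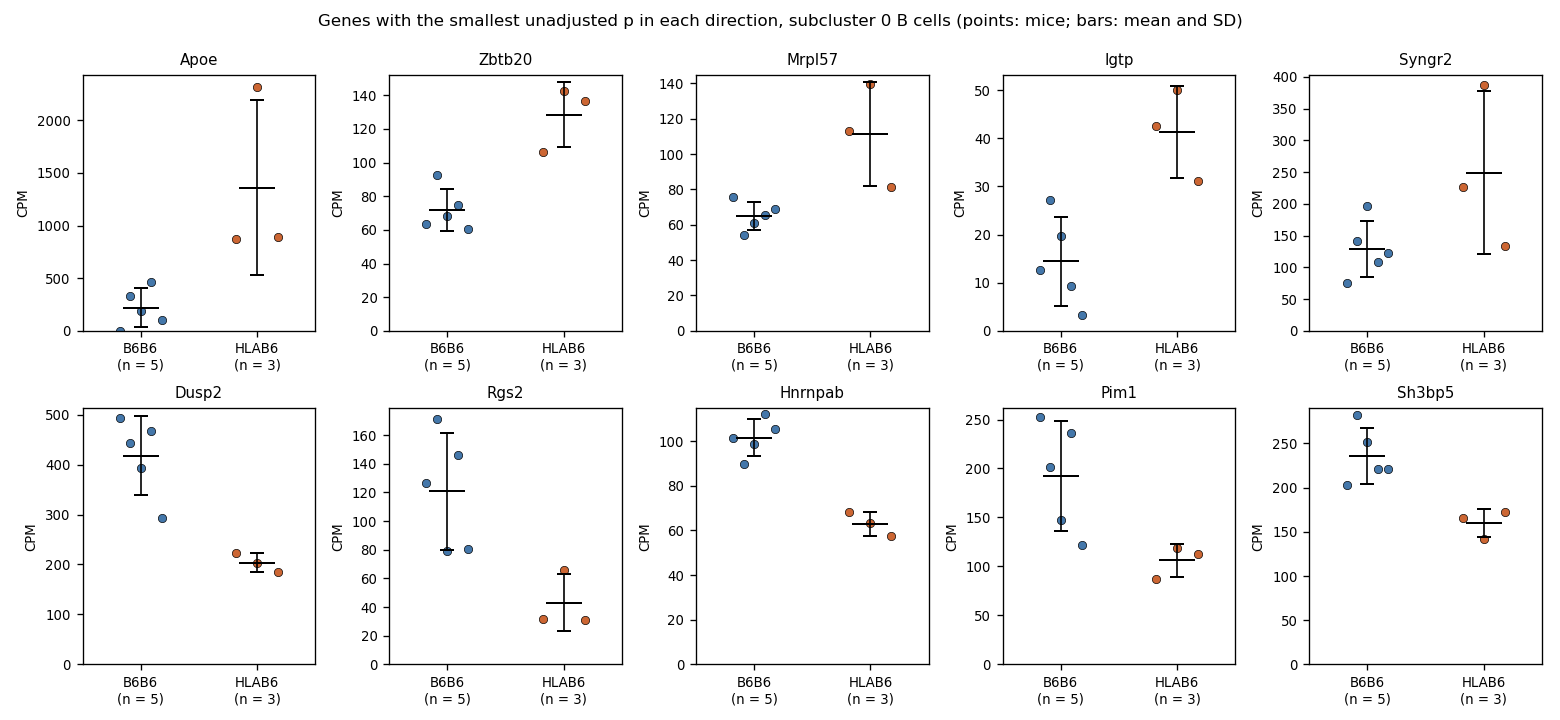
CPM in subcluster 0 B cells for the 5 genes with the smallest unadjusted p among those higher (top) and lower (bottom) in HLA→B6; points are mice, and bars give the mean and SD of 5 B6→B6 and 3 HLA→B6 mice. Of these 10 genes only Syngr2 overlaps between the groups, and none passed the adjusted threshold in edgeR.

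Genes of B cell identity and of the naive state gave no call between the groups. Of 16 identity genes 16 were tested, and 1 (Cd24a, a glycoprotein of immature B cells) was lower at an unadjusted p under 0.05, where 1.6% of all genes were. The median log2 fold change of the identity genes was -0.09 against 0.00 over all genes. The markers stood close together. Cd79a averaged 3431 ± 132 CPM in B6→B6 and 3249 ± 151 CPM in HLA→B6 (log2 fold change -0.06 ± 0.12, adjusted p = 1.00), and Ms4a1 1329 ± 170 and 1136 ± 204 CPM (-0.20 ± 0.15, adjusted p = 1.00). Ly6d, a surface protein of B-lineage commitment, averaged 3626 ± 966 and 2824 ± 175 CPM.

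Of the 13 naive and follicular genes, 13 were tested, 12 had a fold change below 0 and 1, the BAFF receptor gene Tnfrsf13c, had an unadjusted p under 0.05. Over all genes, 1.6% were lower at that p. The median of the 13 was -0.20, and over the 17 alternative fits it ran from -0.31 to -0.15, with 0 to 5 members lower at that p. The 5 were reached without HLA→B6 replicate 3, where 145 of all 4984 tested genes were lower at that p. Klf2, the factor that keeps naive lymphocytes in circulation, averaged 2432 ± 475 CPM in B6→B6 and 1978 ± 572 CPM in HLA→B6. Ccr7 had 444 to 633 CPM in B6→B6 and 335 to 484 CPM in HLA→B6. In T cells of the same grafts 8 of these genes were tested, with a median of -0.52 and 4 lower at an unadjusted p under 0.05 (3.29% of all genes tested in T cells), so a downward median was not particular to subcluster 0.

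As lists, signaling, survival and MHC class II genes lay near the median of all genes. Of 18 genes of B cell receptor signaling 17 were tested, with a median of -0.02 and 0 at an unadjusted p under 0.05. The phosphatase Ptpn6 averaged 561 ± 138 and 512 ± 120 CPM, and the coreceptor chain Cd81 367 ± 55.1 and 407 ± 64.4 CPM. Of 10 inhibitory receptor genes 7 were tested, with a median of 0.00, led in level by Siglecg (408 ± 100 and 391 ± 64.2 CPM) and Cd72 (262 ± 53.7 and 269 ± 83.5 CPM). Of 15 survival genes 11 were tested: Bcl2l11, which encodes the pro-apoptotic protein Bim, was higher, and Tnfrsf13c and Pim1 lower, at an unadjusted p under 0.05 (1.6% of all genes in each direction). Bcl2 averaged 230 ± 58.1 and 220 ± 39.0 CPM.

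Of 15 MHC class II genes 13 were tested, with a median of 0.06 and 0 at an unadjusted p under 0.05. Cd74, the invariant chain, had 27662 to 38859 CPM in B6→B6 and 26285 to 35728 CPM in HLA→B6. H2-Ab1 had 5137 to 6572 and 5579 to 5978 CPM. The groups overlapped in both. For costimulation 6 of 13 genes were tested and Cd86, a ligand of CD28, was higher at an unadjusted p of 0.0123 (21.8 to 75.9 and 42.6 to 71.2 CPM, with overlap). Cd83 averaged 185 ± 76.0 and 248 ± 120 CPM and Cd48 179 ± 37.3 and 154 ± 24.1 CPM.

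Lists of homing receptors, Toll-like receptors, complement and Fc receptors, NF-kB targets and cell cycle genes had 0 genes past the adjusted threshold, and their medians were -0.14, 0.03, -0.10, -0.01 and -0.05. Among 7 tested Toll-like receptor genes, the adaptor Myd88 was higher at an unadjusted p of 0.0263. Nfkbia, the inhibitor of NF-kB, averaged 570 ± 54.8 and 459 ± 20.6 CPM without overlap, with an unadjusted p of 0.0701. Of 9 marginal zone genes 5 were tested (median 0.21), of 15 B-1 genes 3 (median 0.31), of 10 memory or atypical genes 3 (median 0.41), of 12 PC genes 6 (median 0.28) and of 11 germinal center genes 0. The medians of these short lists moved with single mice, that of the B-1 genes from 0.10 without B6→B6 replicate 5 to 0.87 without B6→B6 replicate 4, and that of the marginal zone genes from 0.14 without B6→B6 replicate 4 to 0.38 without B6→B6 replicate 2. Bcl6, the master factor of germinal center B cells, stayed at 16.5 ± 7.63 and 11.4 ± 7.68 CPM, and Fas, a receptor that induces death of activated B cells, at 0 to 10.8 and 0 to 34.1 CPM. Because a gene that is high in 3 mice passes the filter on low counts, the numbers of tested members say nothing by themselves about a direction.

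Most tested interferon-stimulated genes had a fold change above 0, and 0 of them passed the adjusted threshold. Of 31 genes induced by type I interferon 15 were tested, 13 of them had a fold change above 0, and 3 (Bst2, Zbp1 and Ly6a) had an unadjusted p under 0.05 upward, where 1.6% of all genes did. Their median was 0.25, with a range of 0.20 to 0.33 over the alternatives. Of 26 genes induced by IFN-gamma 10 were tested, 9 were above 0 and 4 (Igtp, Irgm1, Ifi47 and Serpina3g) were at an unadjusted p under 0.05 upward, with a median of 0.27 that ran from 0.02 with the replicate block to 0.83 without HLA→B6 replicate 3, with 0 and 6 such genes. Over all tested genes, 124 of 4869 were higher at that p with the replicate block and 99 of 4984 without HLA→B6 replicate 3. Of 21 genes of MHC class I and the immunoproteasome 20 were tested, 18 were above 0 and 1 (Tap1, the peptide transporter) was at an unadjusted p under 0.05, with a median of 0.17. These lists share no gene, but their values come from the same cells and mice and are not independent of each other. A gene that is high only in the HLA→B6 mice can pass the filter on low counts through them, as Igtp could. The numbers of genes above 0 and the medians of these lists are therefore no test of a direction.

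The members named here from their unadjusted p were chosen after their values were seen. Bst2, the antiviral tetherin, had 63.3, 54.3, 79.1, 80.8 and 33.5 CPM in B6→B6 and 113, 97.6 and 93.4 CPM in HLA→B6, without overlap (log2 fold change 0.74 ± 0.25, adjusted p = 1.00). It is also on a list of 9 dendritic cell genes, whose summed level was 40.2 to 90.2 CPM in B6→B6 and 95.8 to 126 CPM in HLA→B6. Ly6a, which the authors used among the genes that report free RNA, had 235 to 468 and 359 to 646 CPM. The genes with the highest level in the lists overlapped between the groups: Ly6e averaged 2907 ± 182 and 3026 ± 201 CPM, Irf8 528 ± 118 and 548 ± 155 CPM, B2m 3575 ± 197 and 3704 ± 280 CPM. H2-D1 averaged 3091 ± 564 and 3383 ± 863 CPM and Ciita, the activator of MHC class II genes, 213 ± 57.0 and 256 ± 36.3 CPM. In T cells of the same mice the medians of the 3 lists were 0.48, 0.57 and 0.32, with 9 of 22, 9 of 22 and 3 of 20 tested genes higher at an unadjusted p under 0.05 and 0 past the adjusted threshold. In the T cell fit 298 of 7164 genes (4.16%) were higher at that level, of 534 (7.45%) in either direction.

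Most tested immediate early genes had a fold change below 0. These genes, such as Fos, Junb and Nr4a1, are transcribed within minutes of a stimulus to the cell. Of 23 listed genes 17 were tested, 15 had a fold change below 0, and 7 (Fos, Junb, Jund, Nr4a1, Ier2, Dusp2 and Myc) had an unadjusted p under 0.05 downward, where 1.6% of all genes did. Their median was -0.62, and it ran from -0.72 to -0.29 over the alternatives, with 3 to 10 members below that p. Over all tested genes, 38 to 145 were lower at that p in the alternatives. Leaving out HLA→B6 replicate 1 gave -0.29 with 3 such genes, leaving out B6→B6 replicate 4 gave -0.51 with 4, and the replicate block gave -0.30 with 8. Over all tested genes these fits had 67 of 4938, 73 of 4887 and 78 of 4869 lower at that p. No member passed the adjusted threshold in edgeR.

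Junb, a subunit of the factor AP-1 (chr8:84974484-84978718, minus strand), had 2227, 1674, 1794, 2503 and 853 CPM in B6→B6 and 588, 1398 and 855 CPM in HLA→B6. The groups overlapped through B6→B6 replicate 5 (log2 fold change -0.91 ± 0.28, adjusted p = 1.00). Jund had 1287 to 2417 and 629 to 1387 CPM. Ier2 had 278 to 510 CPM in B6→B6 and 160 to 253 CPM in HLA→B6, without overlap. The summed level of the 23 genes was 5079 to 8807 CPM in B6→B6 and 3388 to 5915 CPM in HLA→B6. In T cells of the same mice the values were also mostly below 0, with a median of -0.57 over 16 tested genes, 6 of them lower and 1 higher at an unadjusted p under 0.05 (3.29% and 4.16% of all genes tested in T cells). Dusp2 had a log2 fold change of 0.47 in T cells.

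Heat shock and unfolded protein genes stood beside them, with 13 of 14 tested members below 0, a median of -0.28 and 0 members at an unadjusted p under 0.05. The median was -0.14 without B6→B6 replicate 1, -0.49 with 5 members lower without HLA→B6 replicate 3, and -0.11 with the replicate block. Without HLA→B6 replicate 3, 145 of all 4984 tested genes were lower at that p. Hspa8, a constitutive chaperone, had 4720, 1712, 1866, 2177 and 3235 CPM in B6→B6 and 1739, 2139 and 2665 CPM in HLA→B6, and Hsp90ab1 averaged 1556 ± 814 and 1197 ± 265 CPM. The highest value of both was in B6→B6 replicate 1, the mouse with 53 cells, where the 16 genes summed to 12236 CPM.

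**Figure D4:**
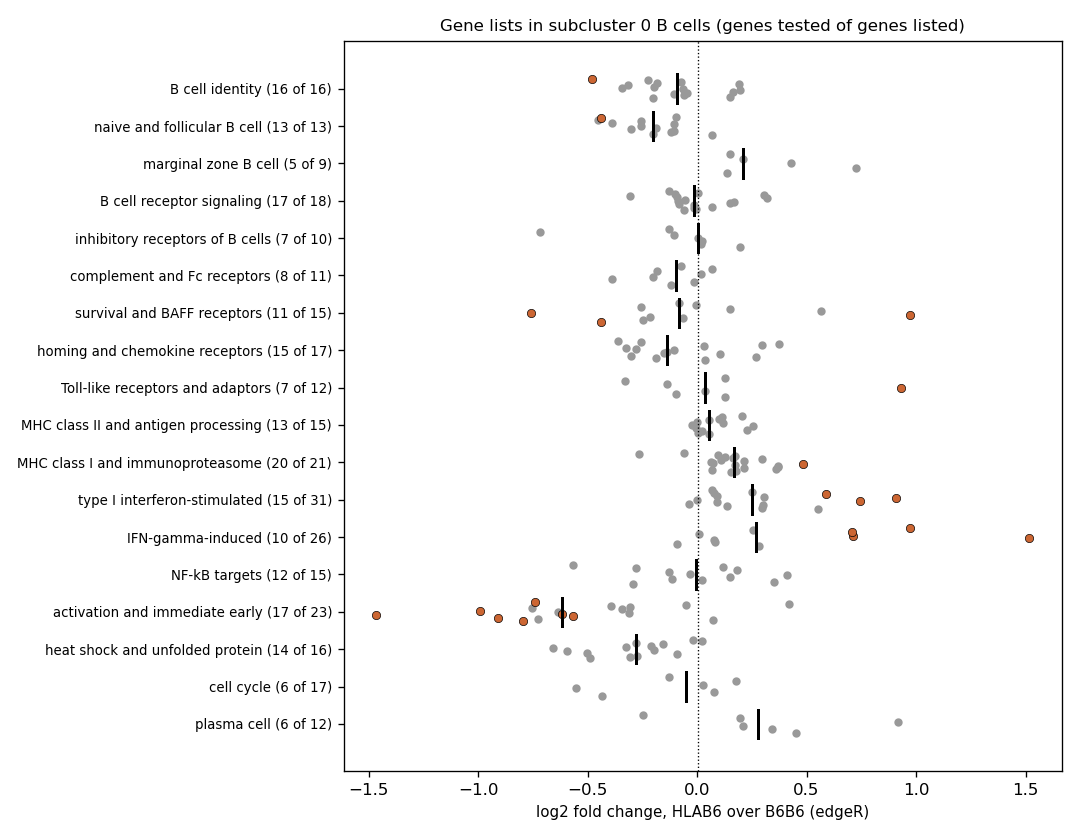
Log2 fold changes (HLA→B6 over B6→B6, edgeR) of the tested genes of 18 lists in subcluster 0 B cells; each point is a gene, filled orange where the unadjusted p was under 0.05, black bars are list medians, and the dotted line is the median of all 4869 tested genes. The list of immediate early genes has its median at -0.62, and the interferon lists at 0.25 and 0.27, while B cell receptor signaling sits at -0.02.

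Of 5 class-switched constant genes, 4 did not overlap between the groups in subcluster 0, but the counts were low and all 5 failed the filter of the gene test. Of the 4869 genes that passed it, 1.54% were higher in HLA→B6 without overlap, and no such share was taken over genes that failed it. Where all B6→B6 mice are at 0, as for Ighg1 and Ighg2c, 1 UMI in each HLA→B6 mouse is enough to set the groups apart. The 4 Ighg genes lie on chromosome 12, and their proteins differ in the hinge, the flexible stretch that joins the antigen-binding arms to the stem. The hinge exons of the Ighg genes counted here are shown to tell the genes apart, from the GENCODE vM21 transcripts of GRCm38, 5′ to 3′ on the minus strand, with capitals for the codons of cysteine, the residue that links the heavy chains.
Ighg1, chr12:113329844-113329882: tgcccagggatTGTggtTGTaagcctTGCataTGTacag
Ighg2b, chr12:113307261-113307326: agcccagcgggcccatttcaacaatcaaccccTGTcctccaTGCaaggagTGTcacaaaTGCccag
Ighg2c, chr12:113288263-113288325: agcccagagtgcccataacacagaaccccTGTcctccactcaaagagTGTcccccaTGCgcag
Ighg3, chr12:113360529-113360576: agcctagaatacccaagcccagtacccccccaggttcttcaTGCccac
The hinge held 4 cysteine codons in Ighg1 and in Ighg2b, 3 in Ighg2c and 1 in Ighg3. Over the 6 pairs of these genes, 78.4% to 88.3% of the 291 bases of the first coding exon and 64.7% to 76.6% of the 320 coding bases of the last exon are the same. The sources used here do not say how the counting treated reads that match more than 1 of these genes, and the values of single Ighg genes carry that uncertainty.

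In B6→B6 grafts, subcluster 0 cells had almost no UMI of a switched constant gene. Ighg1 and Ighg2c had 0 UMIs in all 5 mice, where 3 counts would correspond to 5.03 to 37.96 CPM, and Igha had 1 UMI. In the HLA→B6 mice Ighg1 had 81.0, 36.9 and 4.79 CPM, Ighg2c 211, 34.3 and 14.4 CPM, and Igha 25.6, 21.1 and 19.2 CPM. Ighg2b had 0, 2.72, 5.39, 0 and 1.68 CPM in B6→B6 and 17.0, 58.0 and 23.9 CPM in HLA→B6. In these 4 genes every HLA→B6 mouse was above every B6→B6 mouse, each with an unadjusted exact p of 0.0357 (7 heavy chain genes tested). The Ighg1 UMIs came from 1, 2 and 2 cells of the 3 mice, those of Igha from 9, 8 and 7. Those of Ighg2c came from 37, 2 and 2 cells, and those of Ighg2b from 7, 5 and 5. Ighg3 overlapped, with 0 to 9.33 and 2.64 to 33.5 CPM (exact p = 0.0714). In the fit without a filter on low counts edgeR called Ighg1 (adjusted p = 1.08e-12), Ighg2b (5.17e-05), Ighg2c (1.46e-30) and Igha (0.000326) higher, with Hba-a1, a hemoglobin gene, and Lyz2, a macrophage gene, among its 16 calls. Lyz2 had an edgeR adjusted p of 1.81e-11 there from 47 UMIs in 1 HLA→B6 mouse. A small p in that fit therefore does not show a level shared by the mice. Of Ighg2c, HLA→B6 replicate 1 had 99 UMIs and the others 13 and 6.

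The switched genes took 0%, 0.0460%, 0.142%, 0.216% and 0.0326% of the heavy chain constant UMIs of subcluster 0 in B6→B6, and 6.39%, 2.83% and 2.02% in HLA→B6. The groups were apart, with means of 0.0873% ± 0.0893 and 3.75% ± 2.33 (exact p = 0.0357, adjusted p = 0.286 over 8 measures). Ighd took 8.94% to 19.0% and 14.0% to 18.7% of these UMIs (exact p = 0.893), and the groups overlapped. Ighm averaged 4493 ± 788 and 4114 ± 364 CPM and Ighd 837 ± 211 and 879 ± 129 CPM.

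T cells of the same HLA→B6 grafts also carried switched UMIs, and their level serves here as the comparison. Whether these UMIs came from free RNA or from misplaced cells was not tested. In HLA→B6 replicate 1 Ighg2c was at 211 CPM in subcluster 0 and 165 CPM in T cells, and Ighg3 at 12.8 and 106 CPM. Ighg2b in contrast was at 0 to 2.12 CPM in T cells of the 3 mice, and Igha at 0 to 6.87 CPM. Summed over the 5 genes, subcluster 0 and T cells had 347 and 317 CPM in HLA→B6 replicate 1, 153 and 21.2 CPM in replicate 2, and 95.8 and 25.4 CPM in replicate 3. The level above that of T cells was thus smallest, relative to the T cell level, in replicate 1. The difference between subcluster 0 and T cells of the same mouse remained apart between the groups for Ighg2b, Ighg2c and Igha. The mean differences were 30.2, 24.1 and 18.9 CPM, each with an unadjusted exact p of 0.0357. The groups were not apart for Ighg1 (23.8 CPM, exact p = 0.214) or Ighg3 (-17.1 CPM, exact p = 0.750). For Ighg2c all B6→B6 mice had 0 in both cell types, so any gap above 0 in every HLA→B6 mouse gives the smallest p. In HLA→B6 replicate 3 its levels were 14.4 and 8.48 CPM, from 6 and 4 UMIs. There 3 counts in subcluster 0 correspond to 7.18 CPM. The authors estimated free RNA with Ighg2c, Ighg3, Ighm and Igkc, not with Ighg1, Ighg2b or Igha, and the part of that step was not tested.

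**Figure D5:**
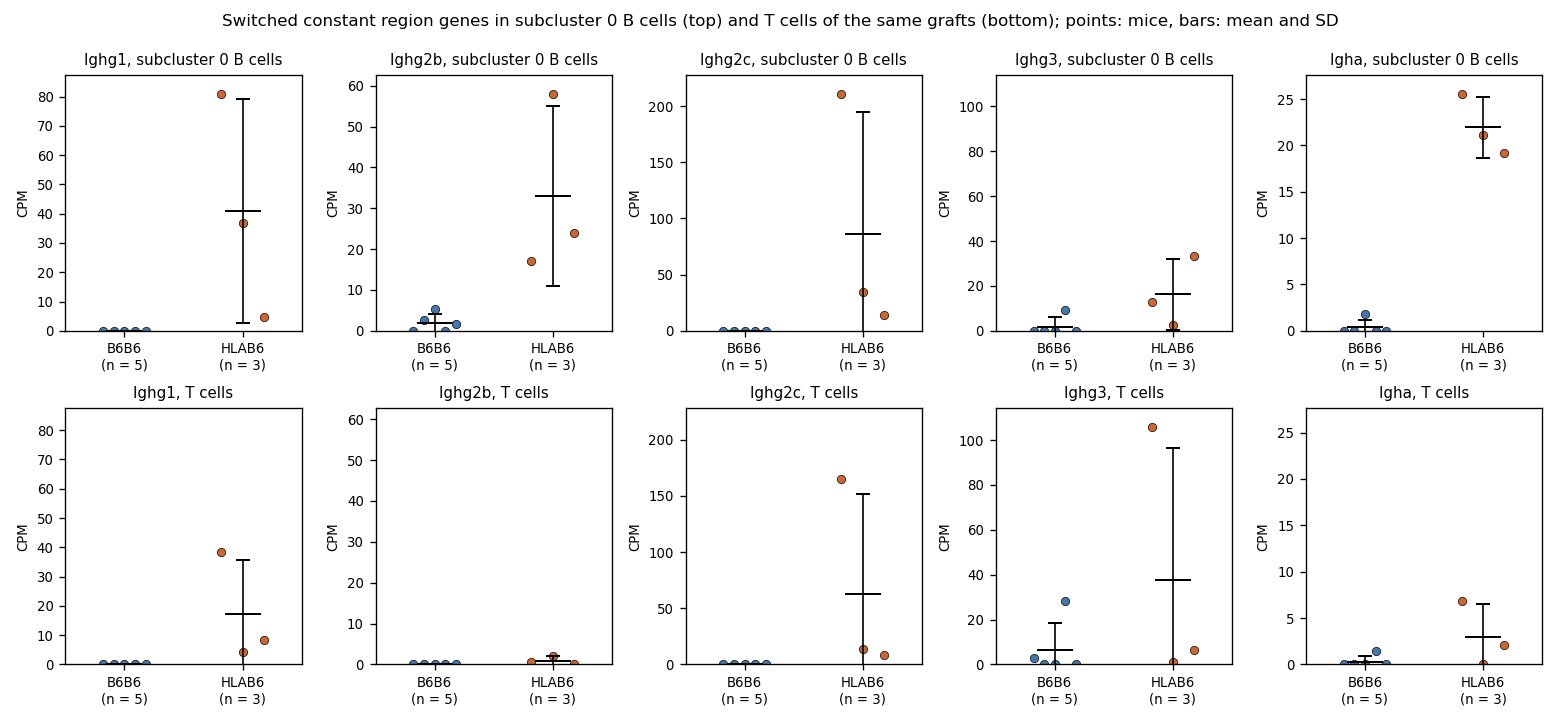
CPM of 5 switched heavy chain constant genes in subcluster 0 B cells (top) and in T cells of the same grafts (bottom), with the same scale for both rows of a gene; points are mice, and bars give the mean and SD of 5 B6→B6 and 3 HLA→B6 mice. Ighg2b and Igha are at 17.0 to 58.0 and 19.2 to 25.6 CPM in HLA→B6 B cells and near 0 in T cells, while Ighg2c and Ighg3 reach 165 and 106 CPM in T cells of 1 mouse.

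By cells, 8 of 1131 B6→B6 cells of subcluster 0 had a switched UMI (0.707%, exact 95% interval 0.306% to 1.39%) against 91 of 762 HLA→B6 cells (11.9%, 9.73% to 14.5%). These intervals cover counting error only. At 1000 UMIs per cell the shares were 0.476% of 1074 cells and 8.72% of 699 cells. By mouse they were 0%, 0.465%, 0.896%, 1.40% and 0.318% in B6→B6 and 17.4%, 6.97% and 9.41% in HLA→B6, and in T cells 0% to 0.559% and 15.5%, 1.77% and 4.33%. The share in subcluster 0 minus that in T cells was at most 1.27 percentage points in B6→B6, and 1.89, 5.20 and 5.08 points in HLA→B6 (mean 0.477 against 4.05, unadjusted exact p = 0.0357). In subcluster 1 the share was 10.0% of 60 B6→B6 cells and 53.4% of 146 HLA→B6 cells.

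Most of the switched UMIs came from few cells. In HLA→B6, 10 of the 762 cells had at least 5 switched UMIs, and together they held 149 of the 261 UMIs (57.1%), while 59 cells had exactly 1. The 10 cells came from all 3 mice. In 9 of them the switched UMIs fell on a single gene or on 1 gene but for 1 UMI, for example 38 of Ighg1 in a cell with 969 UMIs and 31 of Ighg2c in a cell with 2165. In the remaining cell, 6 fell on Ighg1 and 10 on Ighg2b. An Ighm UMI was present in 8 of the 10, an Ighd UMI in 5. T cells of HLA→B6 grafts had 13 such cells of 2508, which held 385 of 662 switched UMIs (58.2%), so this unevenness was not particular to subcluster 0.

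Among light chains, Igkc had the lower values in HLA→B6. It had 16741, 15932, 16017, 15871 and 16749 CPM in B6→B6 and 14365, 13502 and 14817 CPM in HLA→B6. The groups did not overlap in these CPM (exact p = 0.0357). With the normalization factors of the fit, 0 of 4 tested light chain genes were lower without overlap. The edgeR log2 fold change of Igkc was -0.17 ± 0.11, with an adjusted p of 1.00. Igkc was also among the genes with which the authors estimated free RNA. Igkc was at 0 to 16.3 CPM in T cells of B6→B6 and at 27.6 to 351 CPM in those of HLA→B6. The lambda constant genes overlapped between the groups: Iglc1 averaged 1219 ± 469 and 968 ± 161 CPM, Iglc2 1746 ± 275 and 1792 ± 135 CPM, and Iglc3 1746 ± 283 and 1501 ± 177 CPM. Iglc2 and Iglc3 are near-identical copies, and the counting could split reads between them. Cells with more lambda than kappa UMIs were 6.09% to 11.5% in B6→B6 and 5.47% to 10.5% in HLA→B6 (means 8.57% and 8.09%, exact p = 0.821).

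The remaining measures per mouse overlapped between the groups. Immunoglobulin genes took 2.64% ± 0.166 of all UMIs in B6→B6 and 2.38% ± 0.0748 in HLA→B6 (exact p = 0.0714, adjusted p = 0.286 over 8 measures). Mitochondrial transcripts took 2.33% ± 0.293 and 2.75% ± 0.105 (exact p = 0.107), and ribosomal protein genes 30.4% ± 2.93 and 31.7% ± 1.95 (exact p = 0.607). The expected number of genes in 1000 UMIs of a cell was 534 ± 15.4 and 531 ± 14.9 (exact p = 0.679). With 3 against 5 mice, differences below the spread between mice were not detectable here.

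Finally, the change of each gene in subcluster 0 was set against its change in T cells of the same mouse, to test whether the group difference was another one in B cells. With limma on the difference of log2 CPM, 4643 genes were tested and 0 were called in either direction (0%), and 200 (4.31%) had an unadjusted p under 0.05, 96 higher (2.07%) and 104 lower (2.24%). Dusp2 had the smallest p, with a log2 fold change of -0.99 in subcluster 0 and 0.47 in T cells, a difference of -1.45 ± 0.24 (limma adjusted p = 0.567). The other genes lower in subcluster 0 relative to T cells by the smallest p were St6galnac4 (-1.52 ± 0.35), Wdcp (-1.07 ± 0.26), Igkc (-5.28 ± 1.27) and Eea1 (-2.71 ± 0.68). Those higher were Tmem64 (1.34 ± 0.26), Ifrd1 (1.25 ± 0.28), Runx1 (1.01 ± 0.24), Slc25a51 (1.06 ± 0.26) and Sdc4 (1.68 ± 0.45). The value of Igkc came from T cells, where its log2 fold change was 4.61 against -0.17 in subcluster 0. With the same edgeR test as in subcluster 0, T cells gave 5 calls higher of 7164 genes (0.0698%), namely Nrn1, Litaf, Pdcd1, Lag3 and Rgs16, and 0 lower.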

How the data were processed

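Droplet libraries of 8 lung grafts, 5 B6→B6 and 3 HLA→B6, were used. The deposited values were whole UMI counts per gene and cell with no normalization, which the authors made with Cell Ranger on mm10 (GRCm38) and clustered with Seurat. Their methods state that free RNA was removed with SoupX, without saying whether the deposited counts precede that step. Cells, mice and subclusters were taken from the deposited table. HLA→B6 mice were numbered 1 to 3 as in that table. The members and gene lists were chosen with earlier results of these data known. Nothing states separate batches, and p-values measure the spread between these 8 mice.

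Counts of subcluster 0 were summed per mouse (at least 10 cells) and tested in edgeR 4.0.16 (TMM, filterByExpr with a minimum count of 10, quasi-likelihood F test, Benjamini-Hochberg adjusted p under 0.05). CPM in the text are shares of the summed UMIs times 1000000. Differences from T cells were tested in limma 3.58.1 (log2 CPM, prior count 2). Shares were tested by two-sided exact permutation over 56 splits in scipy 1.17.1, with a smallest p of 0.0357. Genes per cell and marker shares were computed at 1000 UMIs. Doublets were kept, and Scrublet (scanpy 1.11.5) served an alternative. Named were the 5 genes with the smallest p in each direction, the 2 highest genes of each list, the cluster markers and the immunoglobulin constant genes, as no gene passed the threshold. Any other gene was picked with its values in view. The tests were checked on simulated data. Gene positions are from GENCODE vM21. Alternatives were DESeq2 1.42.0, RLE factors, no filter, each mouse left out, blocks by replicate number and linked libraries, shared barcodes, doublets, shallow cells, cells with genes of other types or immunoglobulin genes left out, prior count 0.5, and NK cells in place of T cells. Replicate numbers come from the labels and did not pair the mice: deviations of same-numbered mice correlated at -0.01, 0.13 and -0.21 over genes. Some genes are not reported here.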

Additional observations from a re-analysis of the deposited data

Results flagged for a closer look

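Within the B6→B6 group, a mouse stood apart from the other 4 in 7 of 61 measures of subcluster 0. The rule was the gap to its nearest neighbour over the range, which chance passes in about 1 in 20 independent measures. All but 1 of the flags fell on the same mouse, so they do not count as separate events. In B6→B6 replicate 4, other cell types' markers were high: the summed level was 221 CPM for T cell genes (others 12.7 to 21.7), 159 CPM for alveolar macrophage genes (others 34.2 to 65.2), 983 CPM for epithelial genes (others 13.6 to 25.3), 65.3 CPM for fibroblast genes (others 0 to 6.70), 280 CPM for red blood cell genes (others 0 to 28.5) and 21.8 CPM for platelet genes (others 0 to 2.72). In B6→B6 replicate 1, Ighd took 8.94% of the heavy chain constant UMIs, against 16.1% to 19.0% in the others. Their part in the comparisons was not tested, and values without these mice are given where they change a call.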

How the results depend on the processing

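Subcluster 0 had 0 genes called in either direction in the edgeR fit as reported, and also with RLE factors, shared barcodes, doublets, shallow cells, cells with a gene of another type or immunoglobulin genes left out, and with at least 20 cells per mouse, which held for all mice. Without the filter on low counts 16 genes were called higher and 4 lower (Rgs2, Dusp2, Chil3 and Junb), and 566 genes had an unadjusted p under 0.05. DESeq2 called 1 lower (Dusp2). With the linked libraries as a block 1 gene was called higher (Apoe), and with the replicate block 4 (Apoe, Gm42418, AY036118 and Rpl9-ps6), where Apoe had an adjusted p of 4.83e-05. The replicate numbers did not pair the mice, and B6→B6 replicates 4 and 5 have no partner in that fit. Over the 8 fits that leave out a mouse, 0 to 3 genes were called higher and 0 to 1 lower: Apoe without B6→B6 replicate 4, Hba-a1 without HLA→B6 replicate 2, Apoe, Ighg2c and Ighg1 without HLA→B6 replicate 3, and Dusp2 without B6→B6 replicate 5. Hba-a1, Ighg2c and Ighg1 failed the filter with all mice and had 0 UMIs in B6→B6. They were tested in those fits since fewer high mice then suffice to pass the filter. Over 19 alternatives the adjusted p of Apoe was under 0.05 in 5 and ran from 1.43e-39 to 1.00, and that of Dusp2 in 3 and from 0.00231 to 0.642. The lowest value of both genes came from the fit without the filter, where a small p can rest on 1 mouse. The difference from T cells gave 0 calls in each of its 11 alternatives. The 10 named genes kept their direction in all of these fits. The share of subclustered cells kept its direction throughout (-23.1 to -18.4 points without each mouse, and -19.9 points with the replicate block, exact p = 0.25, where 3 pairs allow no smaller p). Values that changed sign were all far from the threshold: genes per cell (-8.39 to 4.86 without each mouse, and 1.33 within sets of libraries), lambda cells (-1.69 to 0.823 points, and 0.534), the Ighd share (-0.675 to 2.54 points) and median UMIs per cell (-122 to 182). The cause was not tested. The median depth of 1586 UMIs per cell limits statements on switched genes, whose counts in single mice were between 0 and 99 UMIs.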
